A study of Ptychidio jordani with 7 samples.

Results

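Insulin-like growth factor (IGF) genes were examined across 7 tissues of Ptychidio jordani, the ratmouth barbel, a fish of the carp family. Genes were taken by name: every row called igf1 to igf3, igf1r or igf2r, or igfbp1 to igfbp6, with or without a or b at the end. The rule found 16 of 26107 genes under 9 distinct names. They were 4 ligand rows, all named igf2, 3 receptor rows (IGF1R in 2 copies and IGF2R) and 9 binding protein rows. The libraries accompany a chromosome-scale genome assembly and were made from normal heart, muscle, liver, kidney, spleen, gill and caudal fin, with 1 sample per tissue. The sources used here do not give age, sex or the number of fish behind a sample. Differences therefore have no replicate check, and none was tested.

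IGFs are small secreted peptides related to proinsulin. They bind the IGF-1 receptor, a tyrosine kinase that passes the signal through insulin receptor substrates, phosphoinositide 3-kinase, AKT and mTOR to promote growth. In blood and tissue most IGF is held by binding proteins, which lengthen its life and limit its access to the receptor until proteases release it. In vertebrates the liver is a main source of circulating IGF, under control of growth hormone, and bony fish carry duplicate copies of many of these genes.

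Values are FPKM, fragments scaled to gene length and to the size of the library, so levels of different genes in a library can be set side by side. Read totals are not given with them, so the depth of each library and the counting error of each value are unknown. An FPKM is a share of its library. Scaling the libraries to a common median ratio (median-of-ratios, over 17448 genes above 0 in all libraries) gave log2 factors of -1.89 in liver, -1.13 in the spleen-labelled library, -0.35 in heart, 0.63 in gill, 0.65 in muscle, 0.76 in fin and 1.05 in kidney. Dividing by them raises liver most and lowers kidney most. For members, levels and counts that turn on this choice are given both ways, while tau and correlations between members are as deposited. Levels of other genes are given as deposited, apart from the row described as IGF-1. Their order of libraries can change with scaling. Marker lists followed most labels. The heart muscle list was highest in heart, with a median of 20.6, and the fast skeletal muscle list in muscle, at 39.2. The epidermis list was highest in fin, at 369, and the kidney tubule list in kidney, at 4.96. The sample labelled spleen went against its label: the hepatocyte list (37 genes) had a median of 166 there and 153 in liver, while the spleen list (34 genes) had a median of 0.01 with 17 genes listed at 0. The fibrinogen gene FGB (Pjo00985) was 10018 in liver, 11947 in the sample labelled spleen and at most 0.42 elsewhere, and APOC1 (Pjo16447), an apolipoprotein, was 21559 and 24903. That sample is called the spleen-labelled library throughout. The egg coat and oocyte list (50 genes) had a median of 605 in muscle and 322 in kidney, against 61.2 in fin, 30.7 in the spleen-labelled library, 13.4 in heart, 3.53 in liver and only 0.47 in gill. Its most abundant genes were the egg coat genes ZP3, at 9431 in muscle and 5029 in kidney, and ZP4 (Pjo20597), at 7937 and 4787.

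The names rest on the authors' annotation, and some are less certain than others. Of the igf2 rows, Pjo24444, Pjo24447 and Pjo07618 also carry an IGF2 entry in the KEGG column, while Pjo09315 is assigned there to LRIF1, a nuclear receptor cofactor. The broadly expressed IGFBP1 row Pjo19844 has 2 protein matches, to IGFBP1 and to IGFBP4. One IGFBP6 row, Pjo11490, belongs to the numbered annotation and the other lies outside the Pjo series. Both have an IGFBP6 entry in the KEGG column, while their descriptions in the authors' table name a predicted IGFBP5 of another fish. Near-identical copies can share reads, so the division of a level between copies of a name is uncertain. Names igf1, igf3 and igfbp4 matched no row and are not analysed here under those names.

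**Figure D1:**
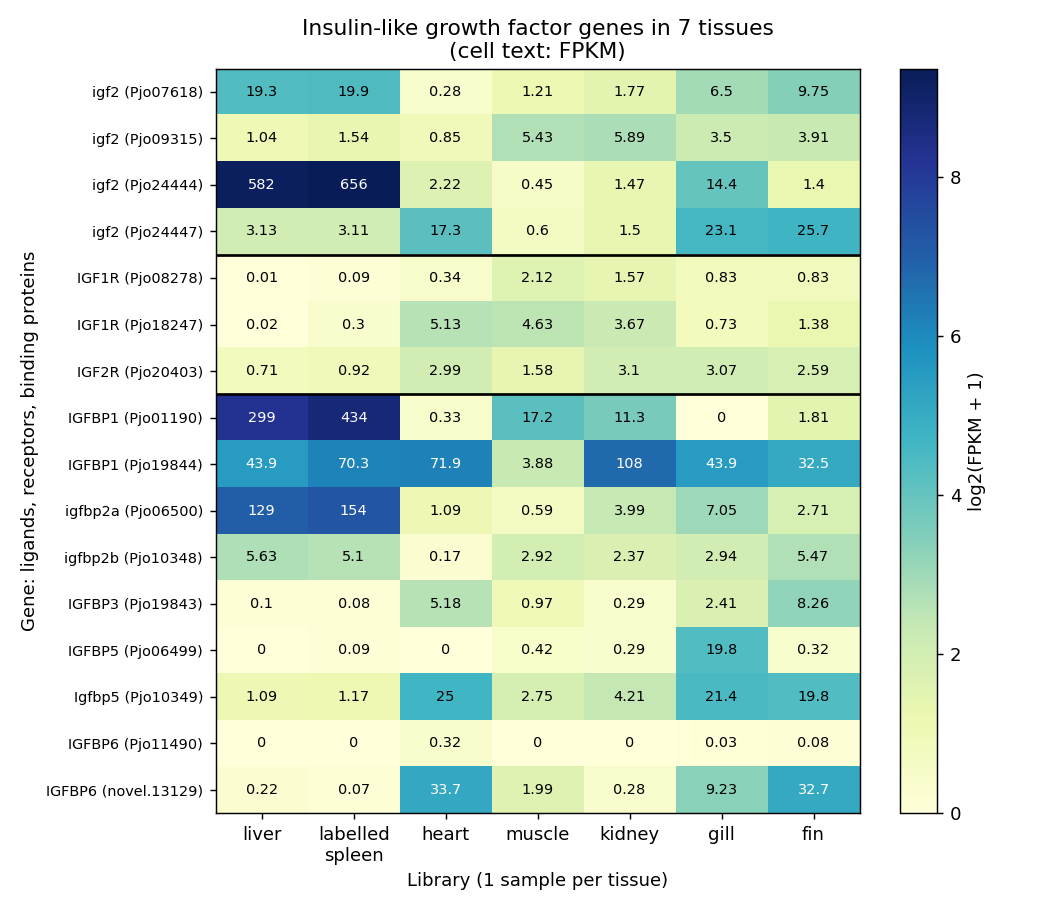
FPKM of the 16 insulin-like growth factor genes (rows, by role) in 7 libraries of 1 sample each (columns), coloured by log2(FPKM + 1) with the FPKM written in each cell. Ligand Pjo24444 and binding proteins Pjo01190 and Pjo06500 stand at 129 or more in liver and the spleen-labelled library and at 17.2 or less elsewhere.

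IGF genes spanned low to high levels. Of the 16, 15 reached an FPKM of 1 in some library and 9 reached 10, where 46.6% of all genes did. A level of at least 1 in every library was found for 2 of 16 members, the IGFBP1 row Pjo19844 and the Igfbp5 row Pjo10349, where 25.8% of all genes had one. Members at or above 1 numbered 13 in fin, 12 in kidney, 12 in gill, 10 in muscle and 9 each in heart, liver and the spleen-labelled library. The corresponding shares of all genes were 64.4% in fin, 61.3% in kidney, 62.1% in gill and 55.6% in muscle. They were 48.4% in heart, 33.8% in liver and 42.2% in the spleen-labelled library. After median-of-ratios scaling members numbered 12 in gill, 11 in fin, 10 each in heart, liver and the spleen-labelled library, 9 in muscle and 8 in kidney. The shares of all genes were not computed on that scale. The specificity index tau, which runs from 0 for an even gene to 1 for a gene of a single library, had a median of 0.54 over the 15 members and 0.55 over the 21151 genes of at least 1 somewhere. By that measure the family median was close to that of the table as a whole. Tau counts liver and the spleen-labelled library as separate, so a gene limited to that pair at like levels stays under 0.85. IGFALS (Pjo03053), at 198 and 201 there and at most 0.1 elsewhere, had a tau of 0.829. The index therefore cannot mark restriction to that pair, where igf2 (Pjo24444) had a tau of 0.68. Of the 15 members only IGFBP5 (Pjo06499) passed a tau of 0.85, which 11.3% of the 21151 genes did.

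Tissue enrichment was called where the highest FPKM was 10 or more and its FPKM + 1 was 5 times that of every other library or more. IGFBP5 (Pjo06499), in gill, was the only member to meet this, 1 of 16 where 4.0% of all genes met it in some library and 1.13% in gill. The shares of all genes in the other libraries were 1.26% in heart, 0.969% in fin, 0.326% in muscle, 0.268% in kidney, 0.0306% in the spleen-labelled library and 0.00766% in liver. Another 3 members were at least 10 in both liver and the spleen-labelled library and 5-fold over the other 5 libraries: igf2 (Pjo24444), IGFBP1 (Pjo01190) and igfbp2a (Pjo06500). That shared rule was added after the levels were seen. It called 3 of 16 members and 1.34% of all genes. The same rule for gill and fin together called no member and 1.37% of all genes. Any gene that meets the shared rule also meets the tissue-enriched rule in liver once the spleen-labelled library is left out. Leaving it out gave 4 enriched members in place of 1, these 3 and IGFBP5 (Pjo06499), so this count is no further result.

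The ligand igf2 was dominated by a liver copy. Pjo24444 stood at 582 in liver and 656 in the spleen-labelled library, 14.4 in gill, 2.22 in heart, 1.47 in kidney, 1.4 in fin and 0.45 in muscle. It was 37.7-fold higher in liver than in gill, the next library, on the FPKM + 1 scale. With 656 it ranked 140 of all genes in the spleen-labelled library, and it made up 96.1% of the summed ligand level in liver. Outside those libraries gill was the highest and muscle the lowest. The level in muscle was 0.077% of that in liver and the level in kidney 0.25%. After median-of-ratios scaling liver was at 2162, the spleen-labelled library at 1431 and gill at 9.33, and liver was 209-fold over gill.

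The other igf2 copies followed different profiles. Pjo24447 stood at 25.7 in fin, 23.1 in gill, 17.3 in heart, 3.13 in liver, 3.11 in the spleen-labelled library, 1.5 in kidney and 0.6 in muscle. As deposited fin, gill and heart formed its upper group. After median-of-ratios scaling heart was at 22.1, fin at 15.2, gill at 14.9 and liver at 11.6, so liver no longer stood apart from that group. It was the leading ligand row in fin, gill and heart, with 63.1%, 48.6% and 83.8% of the summed level of the 4 igf2 rows. Pjo07618 stood at 19.9 in the spleen-labelled library, 19.3 in liver, 9.75 in fin, 6.5 in gill, 1.77 in kidney, 1.21 in muscle and 0.28 in heart. It was highest in the same libraries as Pjo24444, at a far lower level, with fin closer behind. Liver was 1.89-fold over fin on the FPKM + 1 scale as deposited and 10.7-fold after median-of-ratios scaling, where Pjo07618 also met the shared rule. Across the 7 libraries, all from single samples, the log2 profiles of Pjo24444 and Pjo07618 had a Pearson correlation of 0.805, while Pjo24444 and Pjo24447 had -0.14.

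The row of doubtful name, Pjo09315, was the most even igf2 row. It stood at 5.89 in kidney, 5.43 in muscle, 3.91 in fin, 3.5 in gill, 1.54 in the spleen-labelled library, 1.04 in liver and 0.85 in heart. Kidney and muscle led it, the libraries with a high egg coat list. The part of egg RNA in this level was not tested. Rescaling to a common sum placed muscle ahead of kidney, and median-of-ratios scaling placed liver first at 3.87, ahead of muscle at 3.46.

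One further row, outside the naming rule, bears on the ligands. Pjo04384 has no symbol but is described in the authors' table as insulin-like growth factor-1, the main target of growth hormone in the liver of vertebrates. It stood at 12.9 in fin, 1.93 in liver, 1.75 in the spleen-labelled library, 1.09 in gill, 0.06 in kidney and 0.05 in muscle, and was listed at 0 in heart. Fin was 4.75-fold over liver on the FPKM + 1 scale, short of the 5-fold rule. The lead of fin depended on scaling: after median-of-ratios scaling fin was at 7.65 and liver at 7.17, a log2 ratio of 0.08 in place of 2.25. On either scale it was below igf2 (Pjo24444) in liver, at 1.93 against 582 as deposited.

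**Figure D2:**
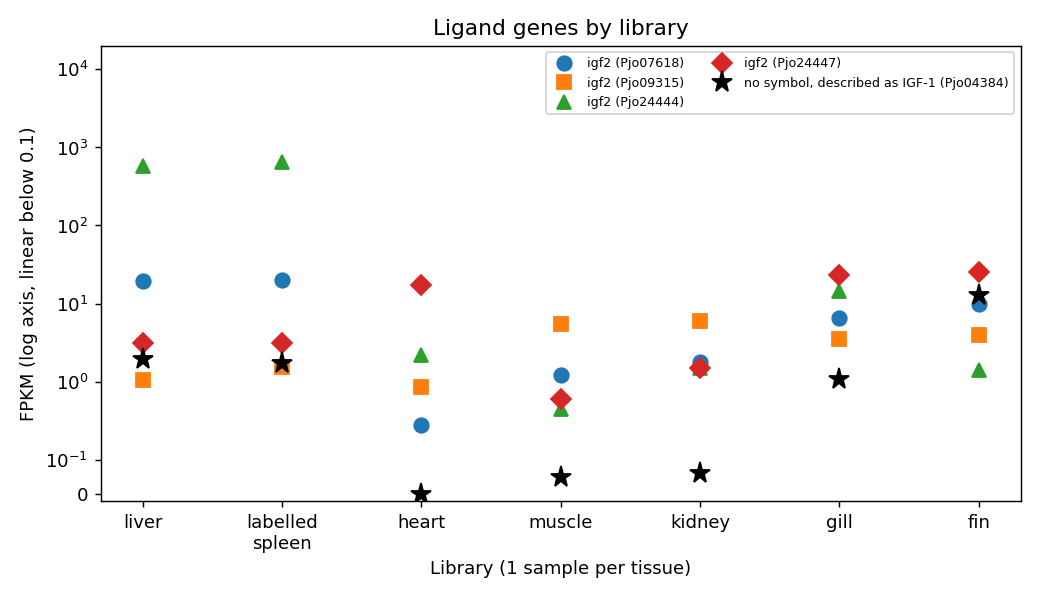
FPKM of the 4 igf2 rows and of the row described as IGF-1 (vertical log axis, linear below 0.1) in 7 libraries of 1 sample each (horizontal axis); each point is 1 value. Pjo24444 reaches 582 in liver and 656 in the spleen-labelled library, while Pjo24447 is highest in fin, gill and heart, and the IGF-1 row in fin at 12.9, near liver after scaling (7.65 and 7.17).

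IGF1R transcripts were lowest in liver, where the leading ligand was highest on the scaled values and close to highest as deposited. The IGF1R gene codes for the tyrosine kinase receptor of IGFs. Its copy Pjo18247 stood at 5.13 in heart, 4.63 in muscle, 3.67 in kidney, 1.38 in fin, 0.73 in gill, 0.3 in the spleen-labelled library and 0.02 in liver. The copy Pjo08278 stood at 2.12 in muscle, 1.57 in kidney, 0.83 in gill, 0.83 in fin, 0.34 in heart, 0.09 in the spleen-labelled library and 0.01 in liver. Both copies were lowest in liver, where their sum was 0.03, and the spleen-labelled library came next at 0.39. The liver values lie at or next to 0.01, the lowest positive FPKM printed. With depth unknown, the size of the gap between liver and the other libraries is uncertain on either scale. The sums were 6.75 in muscle, 5.47 in heart, 5.24 in kidney, 2.21 in fin and 1.56 in gill. Liver also had the lowest sum after median-of-ratios scaling, 0.11 against 0.85 in the spleen-labelled library and 6.99 in heart, the highest on that scale. In muscle and kidney the egg coat list was high as well, and its part in the IGF1R levels there was not tested. In heart, where the egg coat list had a median of 13.4, Pjo18247 was 5.13 against 4.63 in muscle and Pjo08278 was 0.34 against 2.12.

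IGF2R codes for the cation-independent mannose 6-phosphate receptor, which carries enzymes to lysosomes and, in mammals, clears IGF-II. Pjo20403 stood at 3.1 in kidney, 3.07 in gill, 2.99 in heart, 2.59 in fin, 1.58 in muscle, 0.92 in the spleen-labelled library and 0.71 in liver. The 4 highest libraries lay between 2.59 and 3.1. After median-of-ratios scaling heart was highest at 3.82, liver next at 2.64 and muscle lowest at 1.01, so the low place of liver did not hold on that scale. IGF2R had a tau of 0.27, the next to lowest among the 15 members, and no receptor row exceeded 5.13 in any library, against 656 for a ligand and 434 for a binding protein.

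Among the binding proteins, 2 rows met the shared rule for liver and the spleen-labelled library together with igf2. IGFBP1 is known in fish and mammals as a liver product that is induced by fasting and stress and restrains IGF action. Its row Pjo01190 stood at 434 in the spleen-labelled library, 299 in liver, 17.2 in muscle, 11.3 in kidney, 1.81 in fin and 0.33 in heart, and was listed at 0 in gill. It ranked 183 of all genes in the spleen-labelled library. The row igfbp2a (Pjo06500), a binding protein made by the liver of adult zebrafish, stood at 154 in the spleen-labelled library, 129 in liver, 7.05 in gill, 3.99 in kidney, 2.71 in fin, 1.09 in heart and 0.59 in muscle. Liver exceeded the next tissue 16.4-fold for Pjo01190 and 16.2-fold for igfbp2a on the FPKM + 1 scale, and 92.8-fold and 86.5-fold after median-of-ratios scaling. Over 7 libraries the log2 profiles of igfbp2a and igf2 (Pjo24444) had a Pearson correlation of 0.98, and those of Pjo01190 and igf2 (Pjo24444) 0.77. By rank (Spearman) the correlations were 0.89 and 0.32. These rows were set together because they met the shared rule, so their profiles are alike in part by that choice.

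Outside liver, Pjo01190 and igfbp2a differed in opposite directions in muscle and gill. For Pjo01190 muscle and kidney held 5.77% and 3.78% of the liver level, and gill 0. For igfbp2a muscle and kidney held 0.46% and 3.09%, and gill 5.46%. IGFALS (Pjo03053), the acid-labile subunit that binds IGF complexes in serum, was 198 in liver, 0.1 in kidney and 0.02 in muscle, or 0.050% and 0.010% of liver. The hepatocyte list summed to 69702 in liver, 139 in kidney and 122 in muscle. Relative to muscle, Pjo01190 stood at 65.6% in kidney, 10.5% in fin, 1.92% in heart and 0 in gill. The medians of these ratios over 48 egg coat and oocyte genes were 59.3% in kidney, 10.7% in fin, 2.58% in heart and 0.046% in gill. The igf2 row Pjo09315 and the IGF1R rows, also high in muscle and kidney, lay above these medians in each of these libraries. Pjo09315 was at 108% of muscle in kidney, 72% in fin, 15.7% in heart and 64.5% in gill. Pjo18247 was at 79.3%, 29.8%, 111% and 15.8% in that order, and Pjo08278 at 74.1%, 39.2%, 16% and 39.2%. The part of egg RNA in the muscle and kidney levels of Pjo01190 and of these rows was not tested.

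The other IGFBP1 row had a broad profile. Pjo19844 stood at 108 in kidney, 71.9 in heart, 70.3 in the spleen-labelled library, 43.9 in gill, 43.9 in liver, 32.5 in fin and 3.88 in muscle. It had the lowest tau of the 15 members, 0.24, and muscle alone stood apart. Kidney led as deposited, but liver led after median-of-ratios scaling, at 163 against 51.9 in kidney, and muscle was the lowest on both scales. The profiles of the rows named IGFBP1 had a Pearson correlation of 0.015 over 7 libraries.

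IGFBP5, a binding protein of bone and muscle matrix, was the name of 2 rows of different breadth. Pjo06499 stood at 19.8 in gill, 0.42 in muscle, 0.32 in fin, 0.29 in kidney and 0.09 in the spleen-labelled library, and was listed at 0 in heart and liver. Gill was 14.6-fold over muscle on the FPKM + 1 scale, and it remained enriched under each rule and scaling tried on single rows that kept gill. Pjo10349 stood at 24.96 in heart, 21.4 in gill, 19.8 in fin, 4.21 in kidney, 2.75 in muscle, 1.17 in the spleen-labelled library and 1.09 in liver. After median-of-ratios scaling heart stood further ahead, at 31.9 against 13.8 in gill and 11.7 in fin. In gill the copies were alike as deposited, at 19.8 and 21.4, while in fin and heart Pjo10349 was the copy detected above 1. Summed under 1 name, IGFBP5 was highest in gill and not enriched.

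IGFBP3 and IGFBP6, the latter also described as IGFBP5, had profiles like that of Pjo10349. IGFBP3, the main carrier of IGFs in the serum of mammals, stood at 8.26 in fin, 5.18 in heart, 2.41 in gill, 0.97 in muscle, 0.29 in kidney, 0.1 in liver and 0.08 in the spleen-labelled library (Pjo19843). IGFBP6, which in mammals prefers IGF-II, stood at 33.7 in heart, 32.7 in fin, 9.23 in gill, 1.99 in muscle, 0.28 in kidney, 0.22 in liver and 0.07 in the spleen-labelled library in its row outside the Pjo series. As deposited both genes were highest in fin and heart, with gill next and liver and the spleen-labelled library lowest. Their log2 profiles had a Pearson correlation of 0.99 over 7 libraries. After median-of-ratios scaling heart led both, IGFBP3 at 6.62 against 4.89 in fin and IGFBP6 at 43.1 against 19.4. Kidney was then the lowest, at 0.14 for both, with liver at 0.37 for IGFBP3 and 0.82 for IGFBP6. The other IGFBP6 row, Pjo11490, did not exceed 0.32, in heart, and was listed at 0 in 4 libraries.

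As deposited the endothelium list was highest in gill and heart, with fin next. List medians and sums were not computed after median-of-ratios scaling, so the place of fin was not checked on that scale. Its 17 genes had medians of 12.3 in gill, 10.9 in heart, 4.0 in fin, 2.47 in muscle, 2.43 in kidney, 1.14 in the spleen-labelled library and 0.75 in liver. At most 1 of them, in liver, was listed at 0 in any library. Their summed level ran from 181 to 621 in gill, heart and fin and from 36.9 to 105 in the others. The fibroblast and matrix list (21 genes) was high in fin alone, with a median of 37.3 against 3.33 or less elsewhere. It summed to 2713 in fin, 315 in gill and 195 in heart, and to between 60.6 and 404 in the other libraries, with 4 genes at 0 in heart. The sums of 373 in liver and 404 in the spleen-labelled library lay mostly in FN1 (Pjo01070), at 352 and 381. The list medians there were 0.38 and 0.40. The part of these cells in the IGFBP3, IGFBP5, IGFBP6 and igf2 (Pjo24447) levels was not tested. In whole tissue, fewer cells of a type and less RNA per cell cannot be told apart.

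The row igfbp2b (Pjo10348) was low, with heart far below the other libraries. It stood at 5.63 in liver, 5.47 in fin, 5.1 in the spleen-labelled library, 2.94 in gill, 2.92 in muscle, 2.37 in kidney and 0.17 in heart. Liver was its highest library as deposited, nearly equal to fin. After median-of-ratios scaling liver was at 20.9 and the spleen-labelled library at 11.1, against 3.24 in fin and 0.22 in heart. In liver its level was far below that of igfbp2a, 5.63 against 129.

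Among the binding protein rows, 3 neighbouring sets carry consecutive identifiers: IGFBP5 and igfbp2a (Pjo06499 and Pjo06500), igfbp2b and Igfbp5 (Pjo10348 and Pjo10349), and IGFBP3 and IGFBP1 (Pjo19843 and Pjo19844). Vertebrates keep IGFBP2 beside IGFBP5 and IGFBP1 beside IGFBP3, though genomic positions are not used here. The members of a set did not share a profile. In liver igfbp2a was 129 where its neighbour IGFBP5 was listed at 0, and in gill igfbp2a was 7.05 and IGFBP5 19.8. In heart Igfbp5 (Pjo10349) was 24.96 and igfbp2b 0.17, while in liver Igfbp5 was 1.09 and igfbp2b 5.63. IGFBP1 (Pjo19844) exceeded IGFBP3 in every library, for example at 32.5 against 8.26 in fin and at 108 against 0.29 in kidney. The igf2 rows Pjo24444 and Pjo24447 likewise lie 3 identifiers apart.

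**Figure D3:**
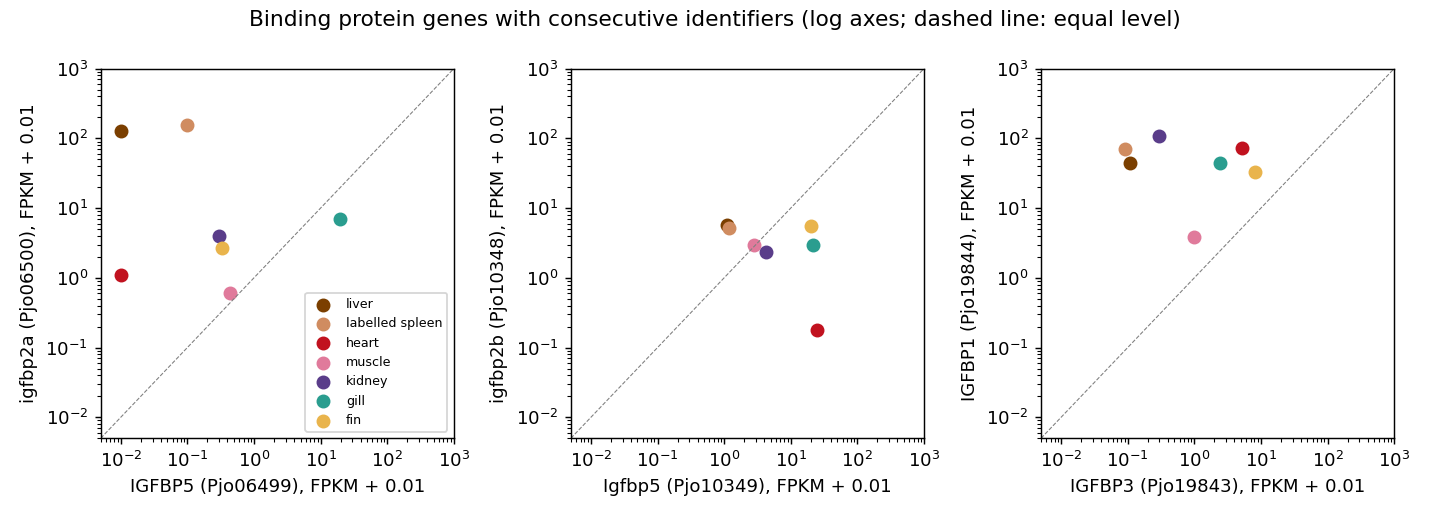
FPKM + 0.01 of 3 sets of binding protein genes with consecutive identifiers, plotted against each other on log axes; each point is 1 library of 1 sample and the dashed line marks equal levels. Points spread along the vertical axis in the left panel, where igfbp2a reaches 154 while IGFBP5 exceeds 0.42 in gill alone, and all points of the right panel lie above the line.

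Summed by role, ligands reached 605 in liver and 680 in the spleen-labelled library. They summed to 47.6 in gill, 40.8 in fin, 20.7 in heart, 10.6 in kidney and 7.69 in muscle. These sums, and the ratios built on them, leave out Pjo04384, the row described as IGF-1, at 12.9 in fin and 1.09 in gill. The order of gill and fin depends on leaving it out. Binding proteins summed to 664 in the spleen-labelled library, 479 in liver, 138 in heart, 130 in kidney, 107 in gill, 104 in fin and 30.8 in muscle. Binding proteins thus exceeded ligands in 5 of 7 libraries. The ratio of binding proteins to ligands was 12.3 in kidney, 6.67 in heart, 4.0 in muscle, 2.54 in fin, 2.24 in gill, 0.98 in the spleen-labelled library and 0.79 in liver. This order does not depend on the scaling between libraries, but the liver values rest on Pjo24444 and Pjo01190: without the most abundant member of each role the ratio was 7.67 in liver and 9.37 in the spleen-labelled library, and muscle was then the lowest at 1.87. The kidney and muscle values rest on the doubtful igf2 row Pjo09315, which held 55.4% and 70.6% of the ligand level there, and were 27.5 and 13.6 without it. Receptors summed to 8.46 in heart, 8.34 in kidney, 8.33 in muscle, 4.8 in fin, 4.63 in gill, 1.31 in the spleen-labelled library and 0.74 in liver. After median-of-ratios scaling receptor sums ran from 2.75 in liver to 10.8 in heart, and fin, the spleen-labelled library and gill lay near liver at 2.84, 2.86 and 2.99. The leading binding protein was Pjo01190 in liver, the spleen-labelled library and muscle, Pjo19844 in kidney, heart and gill, and IGFBP6 in fin. The 16 genes together held 0.20% of the summed FPKM of liver and 0.22% of that of the spleen-labelled library, and between 0.0067% in muscle and 0.024% in heart elsewhere.

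**Figure D4:**
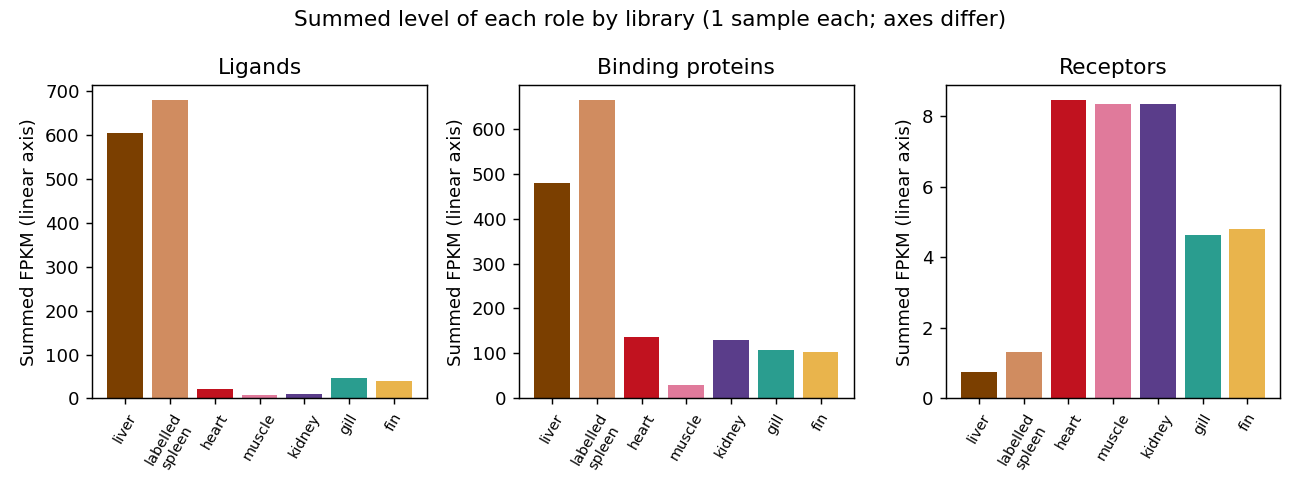
Summed FPKM of the 4 ligand, 9 binding protein and 3 receptor rows (bars from 0, linear axes of different height) in 7 libraries of 1 sample each. Ligands and binding proteins are highest in liver and the spleen-labelled library, at 479 or more, where receptors are lowest, at 0.74 and 1.31; after median-of-ratios scaling liver is lowest at 2.75, followed by fin at 2.84.

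Library pairs were compared at 5-fold on the FPKM + 1 scale with at least 10 in the higher library. The 9 members at or above 1 in liver or the spleen-labelled library were close to equal there. Their log2 ratios of liver to the spleen-labelled library ran from -0.67 to 0.12 with a median of -0.17, beside a median of -0.37 over 11198 genes, and no member passed 5-fold, where 0.0345% and 0.536% of all genes did in favour of liver and of the spleen-labelled library. Between fin and gill, IGFBP5 (Pjo06499) and igf2 (Pjo24444) were 5-fold higher in gill, 2 of 16 beside 2.11% of all genes. The igf2 row was 6.43-fold higher as deposited and 5.65-fold after median-of-ratios scaling, where its gill level of 9.33 lay under the minimum. None was 5-fold higher in fin, where 2.41% of all genes were. Heart and muscle differed in 5 members. Igfbp5 (Pjo10349), IGFBP1 (Pjo19844), igf2 (Pjo24447) and IGFBP6 were higher in heart, 4 of 16 beside 3.70% of all genes, and IGFBP1 (Pjo01190) was higher in muscle, 1 of 16 beside 12.2%. The median log2 ratio of muscle to heart was -0.51 over 14 members and 0.97 over 16616 genes. Kidney and muscle differed in IGFBP1 (Pjo19844) alone, higher in kidney, where 1.92% of all genes were. In the other direction 0.896% of all genes were called and no member.

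The library of the highest level also set the family beside the rest of the table. Of the 15 members, 4 were highest in the spleen-labelled library and 1 in liver, where 4.45% and 1.5% of all genes were. Heart led 3 members (9.96% of all genes), kidney 3 (17.0%), fin 2 (18.4%), gill 1 (23.2%) and muscle 1 (25.6%). After median-of-ratios scaling 7 members were highest in liver, 6 in heart, 1 in muscle and 1 in gill, where 18.8%, 17.8%, 29.1% and 18.0% of all genes were. Liver and the spleen-labelled library together thus led 5 members as deposited and 7 after scaling.

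The growth hormone axis was examined through 20 genes of at least 1 somewhere. None was tissue-enriched as deposited, where 4.0% of all genes were. After median-of-ratios scaling 1 was, and the share of all genes was not computed on that scale. As deposited 7 were highest in gill, 4 in kidney, 3 in heart, 3 in the spleen-labelled library, 1 in liver, 1 in muscle and 1 in fin. Of all genes, 23.2% were highest in gill, 17.0% in kidney, 9.96% in heart and 4.45% in the spleen-labelled library. After median-of-ratios scaling 8 were highest in liver, 6 in heart and 4 in gill, beside 18.8%, 17.8% and 18.0% of all genes. The growth hormone receptor gene GHR (Pjo21170) was 107 in the spleen-labelled library, 99.3 in liver and 74.7 in heart. It was 35.7 in fin, 16.4 in kidney, 15.1 in muscle and 13.4 in gill. Other receptor rows did not all share this order. GHR (Pjo08940) was 4.36 in the spleen-labelled library and 3.61 in liver. GHR (Pjo01163) was 9.05 in muscle and listed at 0 in liver, and ghrB (Pjo16401) was 71.3 in kidney and 45.8 in muscle against 1.56 in liver. IGFALS was 198 in liver and 201 in the spleen-labelled library and at most 0.1 elsewhere, so its profile had the same upper libraries as igf2 (Pjo24444) without the gill level. Feedback inhibitors of the pathway did not share 1 profile. SOCS3 (Pjo03872) and CISH were highest in gill and heart: SOCS3 was 685 in gill and 369 in heart against 31.3 in liver, and CISH in its row outside the Pjo series was 114 in heart and 86.1 in gill against 6.71 in liver. The other CISH row (Pjo11917) was 37.5 in heart and 8.57 in gill, and was the row enriched after scaling. SOCS2 (Pjo04356) went the other way, at 20.9 in liver and 20.5 in the spleen-labelled library against 3.52 in gill and 2.99 in heart.

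Genes of IGF release and processing gave 22 genes of at least 1. Of these fin led 7, gill 4, heart 3 and the spleen-labelled library 3 as deposited, beside 18.4%, 23.2%, 9.96% and 4.45% of all genes. After scaling liver led 7, beside 18.8% of all genes. The convertase PCSK5 was enriched in heart through Pjo24547, at 51.3 against 5.27 in kidney. It was the only enriched gene of this list, where 4.0% of all genes were enriched. Another PCSK5 row (Pjo04982) was 453 in fin and 132 in gill and at most 0.07 elsewhere. A further row, Pcsk5 (Pjo08782), was 21.7 in the spleen-labelled library, 17.9 in liver, 15.1 in muscle, 14.7 in kidney and 0.68 in heart. FURIN (Pjo08294), a convertase that cleaves IGF precursors, was 173 in the spleen-labelled library and 159 in liver against 31.4 in fin. PLG (Pjo20404), plasminogen, whose active form cuts binding proteins, was 977 in the spleen-labelled library, 874 in liver and 10.4 in kidney. The lysosomal protease ctsd (Pjo18146) was even as deposited, between 102 in heart and 168 in gill. The other ctsd row, outside the Pjo series, was 55.5 in muscle, 54.5 in kidney and 2.13 in liver.

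In the list of insulin and receptor signalling, 42 of 46 matched genes reached 1. GRB10 (Pjo19033), an adaptor that damps insulin and IGF receptors, was the only enriched one, where 4.0% of all genes were enriched. It was 45.5 in heart against 6.83 in muscle. Other GRB10 rows had other profiles. Pjo23625 was 37.6 in muscle, 34.25 in kidney and 0.4 in heart, and Pjo16767 was 10.7 in fin, 9.89 in gill and 7.61 in heart. Gill led 11 of the 42 genes, kidney 9, fin 7, heart 6, muscle 6 and the spleen-labelled library 3, and liver none as deposited but 15 after scaling. Of all genes, gill led 23.2%, kidney 17.0%, fin 18.4%, heart 9.96%, muscle 25.6% and the spleen-labelled library 4.45% as deposited. After scaling liver led 18.8% of all genes. PIK3R1 (Pjo04977), a regulatory subunit of phosphoinositide 3-kinase, ranged from 27.9 in heart to 86.8 in gill as deposited. PDPK1 (Pjo23601), the kinase that activates AKT, was 58.5 in kidney and 50.5 in muscle and 5.63 in liver. Ptpn1 (Pjo08997), a phosphatase that switches off the receptors, was 55.7 in gill and 1.37 in liver. RHEB (Pjo23500), the activator of mTOR, was 49.9 in muscle and 40.3 in kidney, the libraries with a high egg coat list, and 0.28 in liver. A further row, Rheb (Pjo06515), was 41.5 in fin, 36.7 in gill, 18.2 in kidney, 14.4 in muscle and 12.6 in liver.

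Of 25 growth and atrophy targets, gill led 9, muscle 6, heart 4, fin 3, kidney 2 and the spleen-labelled library 1 as deposited. The shares of all genes were 23.2%, 25.6%, 9.96%, 18.4%, 17.0% and 4.45% in that order. After median-of-ratios scaling liver led 7, muscle 6, gill 6, heart 4 and fin 2, beside 18.8%, 29.1%, 18.0%, 17.8% and 11.9% of all genes. Of these genes, mstnb (Pjo10286), a copy of myostatin, which limits muscle growth in mammals, was enriched in heart, at 313 against 1.16 in muscle. It was the only enriched gene of the list, where 4.0% of all genes were enriched. TRIM63 (Pjo06483), a ubiquitin ligase of muscle wasting, was 484 in muscle and 176 in heart and at most 0.93 elsewhere. The mTOR inhibitor gene ddit4 (Pjo12269) was 295 in gill and between 34.1 and 84.9 elsewhere as deposited. The translation repressor eif4ebp3l (Pjo21024) was 232 in muscle, 157 in kidney and 150 in liver against 9.83 in heart, also as deposited. Its other row (Pjo14562) was 164 in the spleen-labelled library and 139 in liver, 59.6 in muscle and 11.9 in heart.

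Other genes with an IGF name or an IGF-binding domain numbered 20, with 3 enriched, where 4.0% of all genes were enriched. IGFBP7 (Pjo14530), a distant relative of the binding proteins found in vessel walls, was 597 in gill and 96.2 in kidney, so it shared its enriched library with IGFBP5 (Pjo06499). IGFN1, a muscle filament protein unrelated to IGF signalling, was enriched in muscle in 2 rows, at 67.3 (Pjo06991) and 15.3 (Pjo06987). Of these 3 enriched rows Pjo06991 alone met the rule after median-of-ratios scaling. CCN2 (Pjo19715) and CCN1 (Pjo22565), matrix proteins with an IGF-binding domain, were 237 and 224 in gill and 1.76 and 3.21 in liver.

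**Figure D5:**
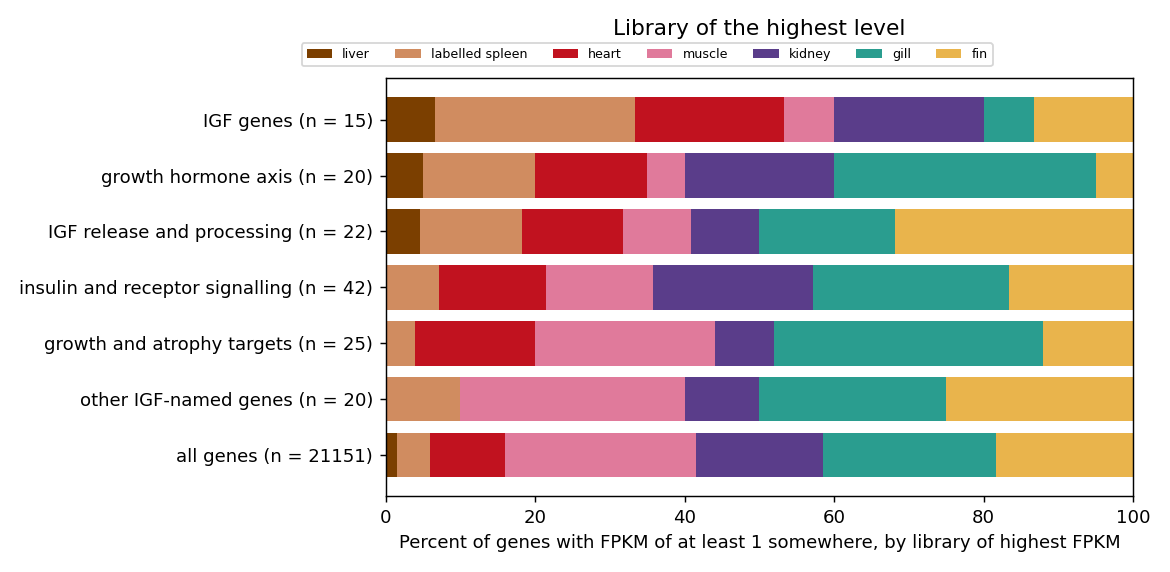
Percent of genes (horizontal axis) whose highest FPKM lay in each of 7 libraries, for the IGF genes, the 5 pathway lists and all genes, counting genes with an FPKM of at least 1 somewhere. As deposited, liver and the spleen-labelled library led 5 of the 15 IGF genes (7 after median-of-ratios scaling), and gill led 7 of the 20 genes of the growth hormone axis and 11 of the 42 of insulin and receptor signalling (4 and 3 after scaling). Of all genes, gill led 23.2% as deposited and 18.0% after scaling.

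Profiles like those of the 9 members that reached 10 were sought among 10730 named genes of at least 10 somewhere, by Pearson correlation of log2(FPKM + 1) over the 7 libraries. They describe these 7 single samples only. For igf2 (Pjo24444) the closest were TM4SF5 (0.994), PPARD (0.992) and a transposon-derived pol gene (0.989), and TM4SF5 and PPARD were also the closest to igfbp2a, followed by ABHD12. PPARD (Pjo22416), a nuclear receptor of fatty acids, was 116 in liver, 127 in the spleen-labelled library and 13.7 in gill. IGFBP1 (Pjo01190) was followed by LCAT (0.9998), a plasma cholesterol esterifying enzyme, which was 104 in liver, 9.83 in muscle, 6.52 in kidney and listed at 0 in gill, then by agmo and Cyp2f2. For igf2 (Pjo07618) the closest were NMT3, Irs1 (0.985) and SDC2. Irs1 (Pjo08163), the insulin receptor substrate, was 28.4 in liver, 11.99 in gill, 9.92 in fin and 0.22 in heart.

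For Igfbp5 (Pjo10349) the closest was DUSP6 (0.999), a phosphatase of ERK kinases, at 99.5 in heart, 78.5 in gill, 73.8 in fin and 8.06 in liver, followed by Dgkb and Prkd1. IGFBP6 outside the Pjo series was followed by myadm (0.994), Plec (0.992) and Casz1, and Plec (Pjo16888), the cytoskeletal linker plectin, was 218 in fin and 143 in heart. The gill-enriched IGFBP5 (Pjo06499) was followed by Sned1 (0.999), CERS2 and Cuzd1, with 48 genes at a correlation of at least 0.99. The copy igf2 (Pjo24447) was followed by SSRP1 (0.988), MAP4 and taok1-b. The broad IGFBP1 row Pjo19844 was closest to rplp0 (0.967), MSRA and rpl7a, 2 of them ribosomal protein genes. Of these 27 closest genes 8 stayed among the 3 closest after median-of-ratios scaling and 22 without the spleen-labelled library.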

How the data were processed

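Total RNA of 7 tissues, 1 sample each, was extracted with TRIzol and made into mRNA libraries with a Vazyme VAHTS kit for MGI sequencers, per the labels' protocols. The authors deposited 1 table of FPKM per gene, printed to 2 decimals. HISAT2 2.2.1 and RSEM 1.3.3 are named in the submitters' processing notes, while the build of the genome and its gene models is not given in the sources used here. Read totals do not accompany the table, so depth, intervals and count tests were not available.

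Levels were used as deposited with Python 3.11.15, numpy 2.4.6 and pandas 2.3.3. Folds are on the FPKM + 1 scale, detection means an FPKM of at least 1, and enrichment needs at least 10 and 5-fold over every other library. The rules were tested on simulated libraries with known changes. The members and gene lists were chosen with earlier results of these data known. All members were named, together with the 4 most abundant and all enriched genes of each pathway list, the 3 closest profiles per member and the 2 most abundant genes of the marker lists that bear on a member. The row described as IGF-1, the CISH row Pjo11917, SOCS2 and the shared rule for liver and the spleen-labelled library were added after values were seen. So were ghrB, FN1 and the further rows of GHR, GRB10, Rheb, ctsd, Pcsk5 (Pjo08782) and eif4ebp3l (Pjo14562). The red cell list, used for the label check alone, had medians of 34.9 in kidney, nearly equal at 34.2 in gill, and 16.7 in heart. Its sums had another order, at 137341 in kidney, 60362.5 in heart and 18717 in gill. The globin row hba (Pjo03032) was 67752, 31174 and 8918 there. Alternatives were another pseudocount, other limits, 2 other scalings, summed copies and left-out libraries.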

Additional observations from a re-analysis of the deposited data

How the results depend on the processing

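The gill enrichment of IGFBP5 (Pjo06499) held under another pseudocount, fold, minimum or scaling and without any other library. The count of enriched members was 1 as reported, 0 with rows of 1 name summed, 0 without gill, and 4 without liver or without the spleen-labelled library. The 3 members shared by liver and the spleen-labelled library stayed under each alternative tried, chosen after seeing the data, and Pjo07618 joined them after median-of-ratios scaling, making 4. With a minimum of 5 the detected members were 2 in muscle, 3 in kidney and 7 in fin, and with 0.1 they were 15 in heart. The shares of all genes were not computed at these limits. After median-of-ratios scaling 6 of 15 members kept their highest library, 1 member in place of 2 was called between fin and gill (igf2 Pjo24444 fell under the minimum of 10 at a 5.65-fold difference), 1 growth hormone axis gene and 1 other IGF-named gene were enriched, and 8 of 27 closest genes stayed. With a 10-fold rule 0 genes of release and processing and 0 of insulin and receptor signalling were enriched. The log2 ratio of the reported highest library to the highest other turned to -0.23 (Pjo01190), -0.51 (Pjo06500), -0.71 (Pjo07618), -0.34 (Pjo09315), -0.37 (Pjo19843), -1.63 (Pjo19844), -0.95 (Pjo20403), -0.60 (Pjo24444) and -0.51 (Pjo24447) under that scaling, and to -0.11 (Pjo07618), -0.0050 (Pjo09315) and -0.14 (Pjo20403) with a common sum. The ratio kept its library but grew to 0.85 (Pjo10348), 1.15 (Pjo10349), 0.94 (Pjo18247) and 1.11 (IGFBP6 outside the Pjo series) under median-of-ratios scaling. Without the most abundant member of each role, binding proteins exceeded ligands also in liver (7.67) and the spleen-labelled library (9.37), and the ratio in muscle was 1.87. Without Pjo09315, left out after seeing the data, it was 27.5 in kidney and 13.6 in muscle. The cause of these shifts was not tested beyond the scaling itself. No paired analysis was possible because each tissue has 1 sample. Depth is unknown, so levels near 0 cannot be given an error.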
